A study of Danio rerio with 6 samples.

Results

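The genes described here encode cyclins, cell cycle kinases and their regulators, and proteins of mitosis. They were chosen by gene symbol from the annotation of the Affymetrix Zebrafish Genome Array, by a pattern of symbols that uses no measured value, and comprised 79 of the 8793 genes with a symbol of their own, on 107 of 15502 probe sets. Where several probe sets read a gene, that with the highest mean of the 6 arrays was used. Total RNA was extracted from whole zebrafish embryos at 24 hours post fertilization (hpf). The 3 samples of *fogsk8* mutants carry a mutation of *foggy/spt5*, the gene for the transcription elongation factor Spt5, and the 3 samples of wildtype (WT) siblings served as controls. The sources used here name no treatment of either group, beyond removal of the chorion by hand or with a Pronase enzyme. Each sample pooled embryos, equal in number between mutants and siblings, and was hybridized to 1 array. The number of embryos per sample, and whether the siblings included heterozygous carriers, are not given in the sources used here.

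The cell cycle is driven by cyclin-dependent kinases (CDKs), which are active only when bound to a cyclin. Cyclin D acts in G1, cyclin E at the entry into S phase, cyclin A in S and G2, and cyclin B in mitosis, while E2F transcription factors, held in check by retinoblastoma proteins, switch on the genes for DNA replication and for parts of mitosis. At mitosis, condensin compacts the chromosomes, kinetochores attach them to the spindle, and the anaphase-promoting complex (APC/C), a ubiquitin ligase, marks securin and the mitotic cyclins for destruction so that cohesin lets the sister chromatids part. In the embryo at this stage, dividing cells are frequent in the neural tube, the eye and the tail bud, and many other cells have already left the cycle.

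Expression is given as deposited, in log2 units after GC-RMA, and a log2 fold change is the *fogsk8* mean minus the WT mean. A gene is said to have risen or fallen where limma gave an adjusted p (Benjamini-Hochberg over all probe sets) under 0.05, and to be differentially expressed where the change was also at least 2-fold. Levels of different genes are not compared, since probe sets differ in how well they bind. The probe set of *supt5h*, which encodes Spt5, read 6.80 to 7.56 on the WT arrays and 3.66 to 3.81 on the *fogsk8* arrays. Arrays of a group correlated at 0.991 to 0.997 in WT and 0.992 to 0.996 in *fogsk8* embryos. Of 29 measured markers of 11 cell types, 13 fell at least 2-fold (3.2% of all genes did), in the neuron, muscle, red cell, myeloid, endothelium, pigment and lens lists. Not every marker of these lists fell. The highest log2 fold change was 0.44 in the muscle, 0.070 in the myeloid and 0.010 in the lens list. The skin markers *krt4*, *krt5* and *cdh1* had summed linear intensities of 20450 to 21350 in WT and 20100 to 24020 in *fogsk8* embryos. Of these 3 skin markers 1 fell, and their log2 fold changes were −0.31 to 0.20. The 3 germ line markers had a mean log2 value under 4.

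Most changes among the cell cycle genes were small, with decreases in *ccna2*, *plk1*, *e2f3* and *cdc20* among others and increases in *anapc13* and *cks1b* among others. Of the 79 genes, 13 fell, where 9.14% of all genes did (16.5% of the cell cycle genes), and 7 rose, where 10.8% of all genes did (8.86% of the cell cycle genes). The decreases were of 1.28- to 1.73-fold, which left 57.9% to 78.2% of the WT level, and the increases of 1.23- to 2.19-fold. The median log2 fold change was −0.16 over the 79 genes and 0.057 over all 8793. Below 0 lay 45 of the 79 genes (57.0%), where 36.3% of all genes did. The *fogsk8* arrays lay entirely below the WT arrays in 28 genes (35.4%, against 15.6% of all genes) and entirely above them in 15 (19.0%, against 25.3%). At an unadjusted p under 0.05, 29 of the 79 were lower (14.8% of all genes) and 13 higher (21.7% of all genes).

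Of the 79 genes, 1 was differentially expressed, *anapc13*, which was higher (0.898% of all genes were). By limma, 0 were lower at 2-fold, where 3.2% of all genes were. The count was 0 also at an unadjusted p under 0.05 (3.76% of all genes), and with Student's t-test of the study's methods, both unadjusted (3.5%) and adjusted (1.84%). No choice of test could change this count, since the lowest log2 fold change on the probe sets used was −0.79, short of 2-fold. With the probe set of the largest spread per gene, 1 gene was lower at 2-fold. The difference from the shares of all genes was not tested. A further 14 genes had an adjusted p between 0.05 and 0.1, 9 of them below 0 and 5 above. A mean log2 value under 4 in both groups was found for 8 genes, *bub1bb*, *ccna1*, *ccnb1l*, *e2f5*, *nek2*, *nek4*, *nek8* and *wee2*. Their group means were 1.80 to 3.98. In the lowest, such as *ccnb1l* (1.80 in WT), a decrease would hardly be seen, and in the others it may be harder to see. In RNA of whole embryos, fewer dividing cells and less RNA per cell cannot be told apart.

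**Figure D1:**
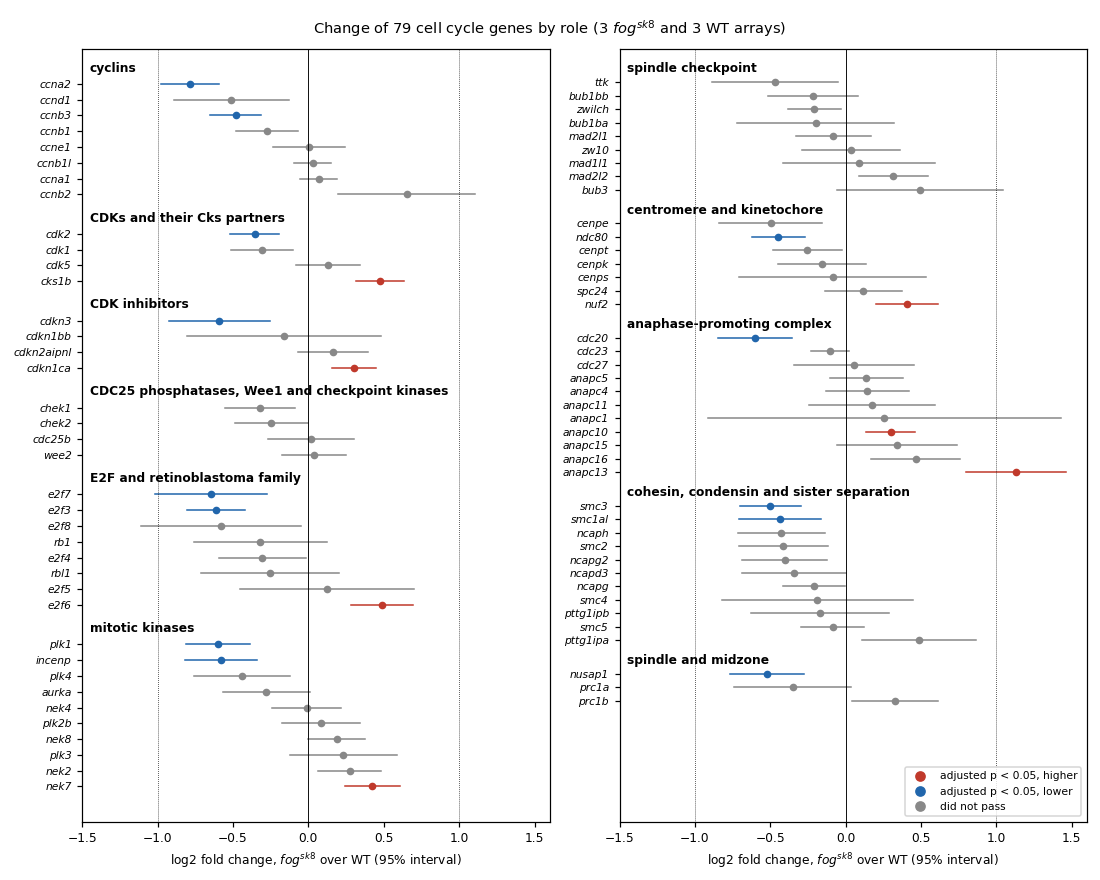
Log2 fold change of *fogsk8* over WT embryos (horizontal axis) for each of the 79 genes by role, from 3 arrays per group. Points are the fitted changes, lines their 95% intervals, dotted lines 2-fold, blue genes fell, red genes rose, and the only gene past 2-fold is *anapc13*, at 1.13.

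Cyclin A2 had the largest decrease of the 79 genes on the probe sets used, though *ccnd1* was lower still on a probe set not used. *ccna2*, the cyclin A of S phase and G2, read 9.44, 9.50 and 9.58 on the WT arrays and 8.63, 8.84 and 8.68 on the *fogsk8* arrays. All *fogsk8* arrays lay below all WT arrays, by more than the spread in either group (log2 fold change −0.79, SE 0.077, adjusted p = 0.00379). *ccnb3*, a B-type cyclin, read 7.82, 7.86 and 7.87 in WT and 7.42, 7.43 and 7.26 in *fogsk8* embryos, and was lower too (log2 fold change −0.48, SE 0.068, adjusted p = 0.00963). These were 2 of 8 cyclin genes, where 9.14% of all genes fell, so that the count says little about the cyclins as a family. Both calls held with any 1 array left out. The remaining cyclins did not pass in the main fit, though *ccnb1*, *ccnb2* and *ccnd1* passed in some alternatives. *ccnb1*, the main mitotic cyclin, read 10.37, 10.35 and 10.14 in WT and 10.03, 10.07 and 9.95 in *fogsk8* embryos. Its arrays did not overlap between the groups, at a log2 fold change of −0.27 (SE 0.082, adjusted p = 0.0774). It passed with array weights (adjusted p = 0.0287), without WT replicate 3 (0.0385) and without replicate 3 of both groups (0.0455). *ccnb2*, its close relative, lay on the other side of 0, with 6.13, 6.09 and 5.56 in WT and 6.38, 6.75 and 6.60 in *fogsk8* embryos (log2 fold change 0.65, SE 0.18, adjusted p = 0.0649, and 0.0342 to 0.167 over the alternatives).

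*ccnd1*, the cyclin D1 of G1, is read by a pair of probe sets that differed in their result. The brighter one gave 10.61, 10.66 and 10.59 in WT and 10.01, 9.87 and 10.45 in *fogsk8* embryos. Replicate 3 of the mutants lay apart from the other mutant arrays and close to WT, and the change did not pass (log2 fold change −0.51, SE 0.15, adjusted p = 0.0787). Without that array it passed (log2 fold change −0.68, adjusted p = 0.0128). The same probe set also passed with array weights (adjusted p = 0.0130), with dim probe sets left out (0.0494) and without replicate 3 of both groups (0.0223). On the other probe set the arrays read 10.02, 10.03 and 10.13 in WT and 8.90, 8.99 and 8.99 in *fogsk8* embryos, and the transcript was 2-fold lower there (log2 fold change −1.10, SE 0.062, adjusted p = 0.000986). It was 1 of 107 cell cycle probe sets lower at 2-fold, where 2.87% of all probe sets were. *ccne1*, the cyclin E that the study used as a control gene in chromatin immunoprecipitation, read 5.75, 5.65 and 5.43 in WT and 5.62, 5.55 and 5.68 in *fogsk8* embryos. The groups overlapped, and the interval of the log2 fold change of 0.0052 ran from −0.23 to 0.24 (adjusted p = 0.971).

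Among the kinases and their partners, *cdk2*, the partner of cyclins E and A, fell, and *cks1b*, a small protein that binds CDKs and helps them bind their substrates, rose. *cdk2* read 8.82, 8.80 and 8.89 in WT and 8.42, 8.58 and 8.45 in *fogsk8* embryos (log2 fold change −0.36, SE 0.066, adjusted p = 0.0211). *cks1b* read 8.64, 8.61 and 8.76 in WT and 9.15, 9.11 and 9.19 in *fogsk8* embryos (log2 fold change 0.48, SE 0.064, adjusted p = 0.00874). The groups did not overlap in either gene. *cdk1*, the mitotic kinase itself, read 9.85, 9.996 and 9.74 in WT and 9.54, 9.63 and 9.50 in *fogsk8* embryos. It did not pass (log2 fold change −0.31, SE 0.084, adjusted p = 0.0599) except with array weights (adjusted p = 0.0341) and when the replicate number entered as a block (adjusted p = 0.0447). *cdk5*, a kinase best known from neurons, had a log2 fold change of 0.13 (interval −0.084 to 0.34).

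The 4 genes named as CDK inhibitors did not move together. *cdkn1ca*, a p57 inhibitor that holds cells out of the cycle as they differentiate, read 9.98, 10.09 and 9.96 in WT and 10.31, 10.30 and 10.34 in *fogsk8* embryos. The mutant arrays lay close to one another, all above WT, and the gene rose by 1.23-fold (log2 fold change 0.30, SE 0.059, adjusted p = 0.0235). *cdkn3*, which encodes a phosphatase of CDKs rather than an inhibitor of the p21 or p16 type, read 6.25, 6.31 and 6.43 in WT and 5.73, 5.99 and 5.50 in *fogsk8* embryos, and fell (log2 fold change −0.59, SE 0.14, adjusted p = 0.0368). *cdkn1bb*, a p27 inhibitor, had 7.39, 7.45 and 8.29 in WT, with replicate 3 apart, and 7.73, 7.39 and 7.51 in *fogsk8* embryos (interval −0.81 to 0.48). *cdkn2aipnl*, which shares part of its name with the inhibitors through a relative that binds a product of *CDKN2A*, read 8.43, 8.44 and 8.26 in WT and 8.68, 8.54 and 8.41 in *fogsk8* embryos, with overlap (log2 fold change 0.16, SE 0.093, adjusted p = 0.302). The calls of *cdk2*, *cdkn1ca* and *cdkn3* each held in only 1 of the 6 fits that leave out an array, without *fogsk8* replicate 2, WT replicate 2 and *fogsk8* replicate 2, and had adjusted p of 0.0514 to 0.0993 in the others. The call of *cdkn1ca* was also lost with the replicate block (adjusted p = 0.0534), with dim probe sets left out (adjusted p = 0.0607) and without replicate 3 of both groups (adjusted p = 0.0856).

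A group of 4 genes sets the timing of mitosis by phosphorylation of CDK1, or halts the cycle when DNA is damaged. None passed by limma on the probe set chosen. At an unadjusted p under 0.05, where 14.8% of all genes were lower, 2 of the 4 lay below 0. These were the checkpoint kinases *chek1* (log2 fold change −0.32, SE 0.094, adjusted p = 0.073) and *chek2* (log2 fold change −0.25, SE 0.098, adjusted p = 0.154). *chek1* read 6.82, 6.90 and 6.96 in WT and 6.74, 6.53 and 6.44 in *fogsk8* embryos, without overlap. *cdc25b*, a phosphatase that activates CDK1, has 3 probe sets. The brightest read 8.17, 7.89 and 7.74 in WT and 7.96, 7.91 and 7.97 in *fogsk8* embryos, with overlap (log2 fold change 0.015, SE 0.12, adjusted p = 0.933). Another read 7.92, 8.08 and 8.02 in WT and 7.63, 7.47 and 7.28 in *fogsk8* embryos and fell (log2 fold change −0.55, SE 0.10, adjusted p = 0.0225). The dimmest read 7.56, 7.57 and 7.53 in WT and 6.94, 7.22 and 7.07 in *fogsk8* embryos and also fell (log2 fold change −0.48, SE 0.083, adjusted p = 0.0177). The result for *cdc25b* therefore depended on the probe set read.

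Of 8 genes of the E2F and retinoblastoma families, 2 fell and 1 rose, where 9.14% and 10.8% of all genes did, so that with so few genes the counts say little about the families. *e2f3*, an activating E2F, read 8.50, 8.30 and 8.49 in WT and 7.85, 7.75 and 7.85 in *fogsk8* embryos (log2 fold change −0.61, SE 0.077, adjusted p = 0.00751). The gap between the groups was wider than the range within either of them. *e2f7*, an atypical E2F that represses its targets, read 4.75, 4.53 and 5.07 in WT and 4.26, 4.01 and 4.13 in *fogsk8* embryos (log2 fold change −0.65, SE 0.15, adjusted p = 0.0383). *e2f6*, a repressor that works without retinoblastoma proteins, read 5.92, 6.13 and 6.12 in WT and 6.64, 6.50 and 6.50 in *fogsk8* embryos and rose (log2 fold change 0.49, SE 0.083, adjusted p = 0.0168). *e2f8*, the other atypical E2F, was at −0.58 (SE 0.22, adjusted p = 0.129, and 0.0488 with the replicate block), and *e2f4* at −0.31 (SE 0.12, adjusted p = 0.14, and 0.0437 with the block), with 8.37, 8.31 and 8.09 in WT and 8.12, 7.96 and 7.78 in *fogsk8* embryos. The retinoblastoma gene *rb1* (interval −0.76 to 0.12) and its relative *rbl1* (interval −0.72 to 0.20) overlapped between the groups. The call of *e2f3* held with any array left out. That of *e2f7* was lost without WT replicate 1 or any 1 *fogsk8* array (adjusted p = 0.0719 to 0.111) and after quantile normalization (adjusted p = 0.0675), and that of *e2f6* without *fogsk8* replicate 1 (adjusted p = 0.0504).

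Of 10 genes of mitotic kinases and their scaffold, 2 fell and 1 rose, where 9.14% and 10.8% of all genes did, a count too small to set apart from these shares. *plk1*, the Polo kinase of mitotic entry and spindle assembly, read 10.15, 10.12 and 9.97 in WT and 9.41, 9.62 and 9.41 in *fogsk8* embryos, 66.0% of its WT level (log2 fold change −0.60, SE 0.087, adjusted p = 0.0107). *incenp*, the scaffold that holds and activates Aurora B at the inner centromere, read 8.90, 8.88 and 9.05 in WT and 8.40, 8.49 and 8.20 in *fogsk8* embryos (log2 fold change −0.58, SE 0.096, adjusted p = 0.0156). Both genes were without overlap between the groups, and both calls held with any array left out, though that of *incenp* was lost with the methods' t-test after adjustment (adjusted p = 0.0578). *nek7*, a kinase linked to the centrosome and spindle, read 6.12, 6.08 and 6.02 in WT and 6.38, 6.54 and 6.58 in *fogsk8* embryos, and rose (log2 fold change 0.42, SE 0.073, adjusted p = 0.0172). That call was lost without WT replicate 1, WT replicate 2 or *fogsk8* replicate 2 (adjusted p = 0.0509 to 0.0598). *plk4*, which starts the duplication of centrioles, was at a log2 fold change of −0.44 (SE 0.13, adjusted p = 0.0713) and *aurka*, the Aurora kinase of the spindle poles, at −0.28 (SE 0.12, adjusted p = 0.169). *plk2b* and *plk3*, Polo kinases that act outside mitosis, had log2 fold changes of 0.085 (SE 0.10) and 0.23 (SE 0.14), at adjusted p = 0.33 to 0.611.

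The 9 genes of the spindle checkpoint, which delays anaphase until every chromosome is attached, did not pass by limma. At an unadjusted p under 0.05, 2 were lower (14.8% of all genes) and 1 higher (21.7% of all genes), counts too small to set apart from these shares. *bub3*, which brings other checkpoint proteins to the kinetochore, read 8.57, 8.63 and 7.94 in WT and 8.98, 9.05 and 8.59 in *fogsk8* embryos. Replicate 3 was the lowest array in both groups, and the groups overlapped (log2 fold change 0.49, SE 0.22, adjusted p = 0.198), and with the replicate block the gene passed (adjusted p = 0.0236). *ttk*, the kinase Mps1, was at −0.47 (SE 0.17, adjusted p = 0.122) with 8.23, 8.16 and 7.91 in WT and 7.76, 7.84 and 7.30 in *fogsk8* embryos, without overlap, and likewise passed with the block (adjusted p = 0.028). *mad2l1*, the effector that binds the APC/C activator, read 9.62, 9.48 and 9.33 in WT and 9.48, 9.44 and 9.27 in *fogsk8* embryos, and its interval ran from −0.33 to 0.17. *mad2l2*, a relative that acts chiefly in DNA repair, was at 0.32 (SE 0.092, adjusted p = 0.0715, and 0.0454 with the block).

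Subunits of one kinetochore complex went in opposite directions. Ndc80 and Nuf2 wind around each other to form the arm that grips the microtubule, and *ndc80* fell while *nuf2* rose. *ndc80* read 8.09, 8.08 and 8.12 in WT and 7.61, 7.78 and 7.57 in *fogsk8* embryos (log2 fold change −0.45, SE 0.071, adjusted p = 0.0139). *nuf2* read 7.57, 7.69 and 7.80 in WT and 8.04, 8.19 and 8.06 in *fogsk8* embryos (log2 fold change 0.41, SE 0.083, adjusted p = 0.0263). Neither gene overlapped between the groups. *spc24*, another subunit of the complex, had a log2 fold change of 0.12 (interval −0.14 to 0.37). *cenpe*, a kinesin of the kinetochore, read 8.66, 8.72 and 8.31 in WT and 8.18, 8.13 and 7.89 in *fogsk8* embryos, without overlap, and did not pass (log2 fold change −0.50, SE 0.14, adjusted p = 0.0619, and 0.0173 with the replicate block). It also passed with array weights (adjusted p = 0.0201), with dim probe sets left out (0.0420) and with a mean-variance trend (0.0493). The same held without WT replicate 3 (0.0281) and without replicate 3 of both groups (0.0226). *cenpk*, *cenps* and *cenpt*, of the inner kinetochore, had log2 fold changes of −0.16, −0.086 and −0.25 (adjusted p = 0.124 to 0.827). The call of *ndc80* was lost without WT replicate 1 (adjusted p = 0.0505). That of *nuf2* held only without WT replicate 3 and was lost in the other 5 such fits (adjusted p = 0.0575 to 0.0785).

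**Figure D2:**
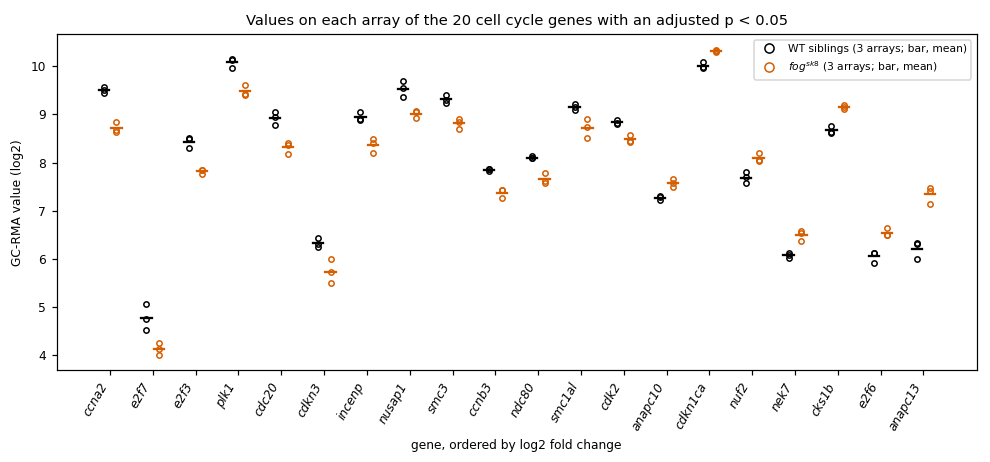
GC-RMA values (log2, vertical axis) on each of the 6 arrays for the 20 genes that rose or fell, ordered by log2 fold change. Open points are arrays and bars group means, and the groups do not overlap in any of the 20 genes, which were picked by this contrast.

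Among the APC/C genes, that of the activator fell, and most of those for subunits lay above 0, as did most of all genes. *cdc20*, the activator that starts anaphase, read 9.04, 8.95 and 8.77 in WT and 8.37, 8.40 and 8.18 in *fogsk8* embryos, and fell (log2 fold change −0.60, SE 0.099, adjusted p = 0.0157). Of 10 genes for subunits of the complex itself, 2 rose, and 9 had a log2 fold change above 0 (median 0.22). Of all genes, 63.7% lay above 0 and 10.8% rose, and with 10 genes the counts are too small to set apart from these shares. The same 9 lay above 0 with arrays centred on their medians and after quantile normalization, while *anapc1* and *cdc27* reached −0.087 and −0.13 in other alternatives. *anapc13*, a small subunit that helps to hold the complex together, read 6.33, 6.32 and 5.996 in WT and 7.47, 7.14 and 7.42 in *fogsk8* embryos, a 2.19-fold increase (log2 fold change 1.13, SE 0.13, adjusted p = 0.00633). Every *fogsk8* array was above every WT array, and WT replicate 3 was the lowest of the 6. *anapc10*, which helps to bind substrates, read 7.31, 7.23 and 7.28 in WT and 7.66, 7.58 and 7.48 in *fogsk8* embryos (log2 fold change 0.30, SE 0.066, adjusted p = 0.0336). *anapc16* read 8.87, 9.13 and 8.74 in WT and 9.29, 9.51 and 9.35 in *fogsk8* embryos, and lay at the threshold (log2 fold change 0.46, SE 0.12, adjusted p = 0.0503, and 0.0249 with the replicate block). The other 6 above 0, *anapc1*, *anapc4*, *anapc5*, *anapc11*, *anapc15* and *cdc27*, had log2 fold changes of 0.055 to 0.34, and *cdc23* had −0.10 (interval −0.23 to 0.024). Of these, *anapc1* varied most, with 5.001, 4.13 and 3.53 in WT and 5.05, 4.60 and 3.78 in *fogsk8* embryos, so that the interval of its change was −0.92 to 1.43.

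The change of *anapc13* passed the test of adjusted p in each alternative, at log2 fold changes of 0.98 to 1.23. It was just under 2-fold with array weights and without replicate 3 of both groups. The call of *cdc20* was lost without WT replicate 1 or WT replicate 2 (adjusted p = 0.0501 to 0.0541). That of *anapc10* held only without *fogsk8* replicate 3 (adjusted p = 0.0776 to 0.105 in the other 5 such fits) and was lost with the replicate block (adjusted p = 0.0527), with dim probe sets left out (adjusted p = 0.0684) and with a mean-variance trend (adjusted p = 0.0745).

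Of 11 genes in the role of cohesin, condensin and sister separation, 10 lay below 0, and *pttg1ipa* lay above. All 9 *smc* and *ncap* genes had a log2 fold change below 0 (−0.086 to −0.50, median −0.41), where 36.3% of all genes did. The same held with arrays centred on their medians and after quantile normalization, while *smc4* reached 0.012 in another alternative. Of the 9, 2 fell, where 9.14% of all genes did, a count too small to set apart from that share. *smc3*, a core subunit of the cohesin ring, read 9.40, 9.23 and 9.30 in WT and 8.90, 8.69 and 8.84 in *fogsk8* embryos (log2 fold change −0.50, SE 0.081, adjusted p = 0.0149). *smc1al*, the other arm of the ring, read 9.09, 9.15 and 9.22 in WT and 8.91, 8.52 and 8.73 in *fogsk8* embryos (log2 fold change −0.43, SE 0.11, adjusted p = 0.0488). Both were without overlap. Of its 5 probe sets, 3 fell, 1 was at −0.011 (adjusted p = 0.951), and 1 lay at the floor. In condensin, *smc2*, a core ATPase subunit, was at −0.41 (SE 0.12, adjusted p = 0.0695, and 0.046 with the block), and fell on its other probe set (log2 fold change −0.64, SE 0.083, adjusted p = 0.00808), which read 6.98, 7.10 and 7.08 in WT and 6.27, 6.47 and 6.51 in *fogsk8* embryos. *ncaph* and *ncapg2*, of the same family of complexes, were at −0.43 (SE 0.12, adjusted p = 0.0601) and −0.41 (SE 0.11, adjusted p = 0.0646). *smc4*, the partner of *smc2*, was at −0.19 (interval −0.82 to 0.45), with replicate 3 the lowest array in both groups, and *smc5*, of a repair complex, at −0.086 (interval −0.30 to 0.12). *pttg1ipa* and *pttg1ipb*, which share part of their name with securin because the human protein binds it, had log2 fold changes of 0.49 (SE 0.15, adjusted p = 0.0874, and 0.0439 with the block) and −0.17 (SE 0.19, adjusted p = 0.57). The call of *smc3* was lost without WT replicate 1 (adjusted p = 0.0508). That of *smc1al* held only without *fogsk8* replicate 1 (adjusted p = 0.0897 to 0.119 in the other 5 such fits), and was lost with the block (adjusted p = 0.0579), with arrays centred on their medians (adjusted p = 0.0651) and after quantile normalization (adjusted p = 0.0527).

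*nusap1*, a microtubule-bundling protein of the mitotic spindle, read 9.55, 9.37 and 9.69 in WT and 9.06, 9.05 and 8.91 in *fogsk8* embryos, and fell (log2 fold change −0.52, SE 0.099, adjusted p = 0.0224). It was lower on each of its 3 probe sets, at −0.37 to −0.52, and passed on 2 of them. The call on the brightest probe set was lost without WT replicate 1 or any 1 *fogsk8* array (adjusted p = 0.0581 to 0.0719). *prc1a* and *prc1b*, paralogs of the protein that bundles microtubules at the spindle midzone before cytokinesis, lay on opposite sides of 0 and did not pass. *prc1a* was at −0.35 (SE 0.16, adjusted p = 0.194). *prc1b* read 7.35, 7.41 and 7.05 in WT and 7.64, 7.67 and 7.48 in *fogsk8* embryos, without overlap (log2 fold change 0.33, SE 0.12, adjusted p = 0.116, and 0.0434 with the block).

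Where a gene had more than 1 probe set, all of its probe sets had the same sign in 12 of 16 cases. Among the 12 are *e2f5* and *wee2*, whose probe sets all had a mean under 4, so that their signs say little. The exceptions were *cdc25b*, *cdkn1bb*, *ncaph* and *pttg1ipb*. In *ncaph* the exception is a probe set at the floor. Over all 107 probe sets, 22 fell and 7 rose, where 7.99% and 8.88% of all probe sets did. *bub3*, *incenp* and *ccnb3* gave like changes on each of their probe sets, with *incenp* at −0.58 and −0.65, and the 4 probe sets of *ccnb3* at −0.42 to −0.56. Some of these share probes. A suffix (a, s or x) that marks probes shared with other transcripts, of the same gene or of others, is carried by 11 of the 107. Among these are the probe sets used for *ccnb1* (suffix s), *ccnb3* and *nusap1* (both suffix a, for transcripts of the same gene).

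**Figure D3:**
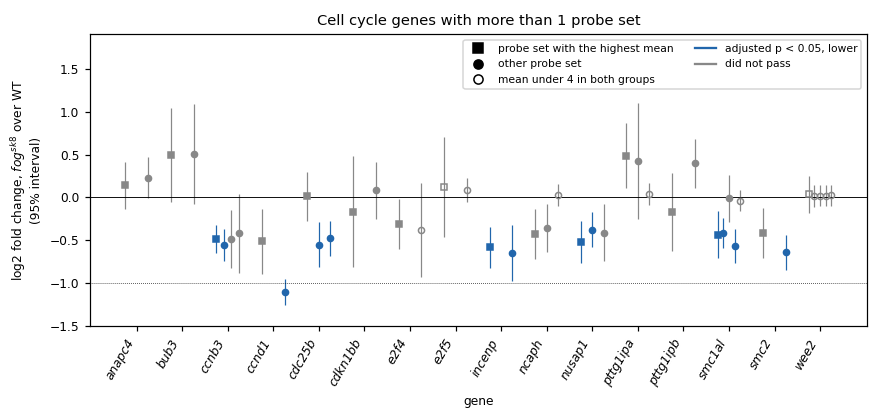
Log2 fold change of *fogsk8* over WT embryos (vertical axis) for each probe set of the 16 genes with more than 1, with 95% intervals. Squares are the probe sets used for the gene, and *ccnd1* and *cdc25b* show other probe sets lower than the one used.

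Some other genes of the cycle fell in the same embryos, with genes of the replicative helicase among those that changed most. A list of 105 further gene names of replication, chromosomes and cycle control, some of them names of the same gene, gave 85 measured genes. Of these, 36 fell (42.4%, against 9.14% of all genes), 4 rose (4.71%, against 10.8%) and 45 did not pass. Their median log2 fold change was −0.35. The list was chosen with earlier results of these data known, so these shares only describe it. The difference between this list and the 79 genes was not tested. The fallen genes included the replicative helicase genes *mcm2* (log2 fold change −1.77, SE 0.13, adjusted p = 0.00207) and *mcm5* (−1.40, SE 0.058, adjusted p = 0.000524), the sliding clamp gene *pcna* (−0.59, SE 0.059, adjusted p = 0.00399), and *mki67*, the Ki-67 gene of dividing cells (−0.67, SE 0.095, adjusted p = 0.0102). Of 21 genes of origin licensing and firing, 10 fell, 6 of them at least 2-fold, where 3.2% of all genes were 2-fold lower. Of 12 genes of DNA synthesis 7 fell, and of 25 further genes of chromosomes and the spindle 11 fell and 1 rose. The latter was *birc5a*, which encodes survivin, a partner of the incenp protein in the chromosomal passenger complex (log2 fold change 0.53, SE 0.12, adjusted p = 0.0358). The mitotic kinesin gene *kif11* fell (−0.72, SE 0.068, adjusted p = 0.00347), as did *mybl2b*, a transcription factor of genes of mitosis (−1.25, SE 0.076, adjusted p = 0.00119). In the same embryos the summed linear intensity of the neural progenitor markers *sox2*, *sox3* and *sox19a* was 2952 to 3201 in WT and 1946 to 2443 in *fogsk8* embryos, and 1 of the 3 fell. The part of such cells in these decreases was not tested.

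**Figure D4:**
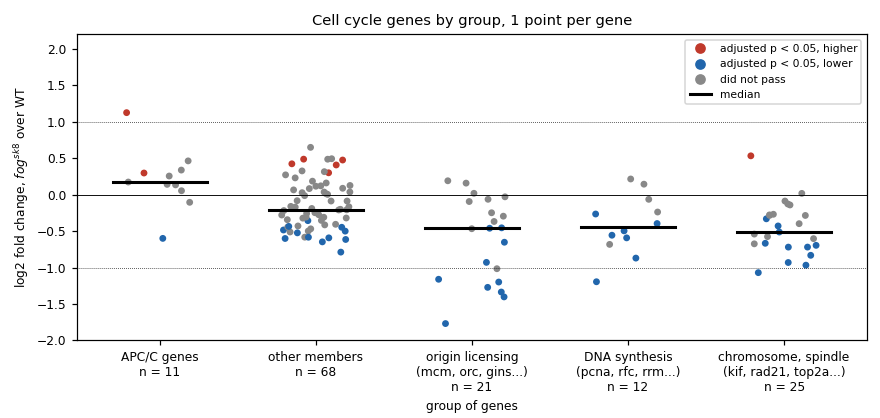
Log2 fold change of *fogsk8* over WT embryos (vertical axis) for single genes (points) of 5 groups, with black bars as medians and dotted lines at 2-fold. The APC/C genes, *cdc20* included, have a median of 0.17, and the genes of origin licensing, DNA synthesis, and chromosomes and spindle have medians of −0.46, −0.45 and −0.51.

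On single arrays, the 13 genes that fell had a median distance from the WT mean of −0.52, −0.48 and −0.62 on *fogsk8* arrays 1, 2 and 3, and the 7 genes that rose of 0.38, 0.44 and 0.44. Since these genes were picked by this contrast, the values only describe how alike the mutant arrays were. The median of all 79 genes was −0.080, −0.064 and −0.17 on the same arrays, and 0.043, 0.0075 and −0.051 on the WT arrays. Replicate 3 was thus the lowest for the cell cycle genes in both groups. It was also the lowest over all genes, whose medians were 0.067, 0.066 and 0.016 on *fogsk8* arrays 1, 2 and 3. On the WT arrays they were −0.0020, 0.0059 and −0.0048. Without replicate 3 of both groups, 11 genes fell and 3 rose, and 8 of the 20 calls held. The shares of all genes in that fit are not given.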

How the data were processed

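Biotin-labelled copy RNA (cRNA) from 3 *fogsk8* and 3 WT sibling samples was hybridized to Affymetrix Zebrafish Genome Arrays. The deposited log2 intensity values were made by the authors with GC-RMA from Bioconductor, which corrects for background by GC content, normalizes between arrays and gives 1 value per probe set. No source used here names its version. Normalization between arrays can hide a change that most genes share, and shared probes can mix the signals of related transcripts. Scanner files were not used here.

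Samples were grouped by their titles. After 115 control probe sets were left out, 15502 were fitted with limma 3.58.1 in R 4.3.3 without covariates, with Benjamini-Hochberg adjustment over them all. Genes were named by the platform's symbols, none from a probe set with several. All 79 genes were found in a RefSeq table of GRCz12tu, used for names only. The pattern of symbols that picks the genes uses no value, but it, the roles and the lists were chosen with earlier results of these data known, and the probe set per gene was picked by its mean on these arrays. Values on each array are given for every differentially expressed gene, the 10 others with the largest change at an adjusted p under 0.05, *ccne1*, and the 2 of highest mean in each role (none changed by 2-fold without passing). Those of further genes were added after their values were seen. Arrays with the same replicate number had correlated deviations from their group's mean (r = 0.12 for replicate 1, 0.29 for replicate 2 and 0.39 for replicate 3), each above the 0.1 set for pairing. A replicate block was therefore run as an alternative and is given where it changes a call. WT replicate 1 correlated more with *fogsk8* replicate 2 (0.18), and replicate 3 stood apart in both groups.

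Other alternatives were Student's t-test of the study's methods, a mean-variance trend, array weights, median centring, quantile normalization, removal of probe sets with a mean under 4 in both groups, another choice of probe set, and each array or replicate 3 left out. The script was tested on simulated data with changes of 1.5, 2 and 3 log2 units, scored at 2-fold. Smaller changes, as most of those reported here, were not simulated. The study's methods call the replicates independent, and precision is limited by the number of arrays. Python 3.11.15 with pandas 2.3.3 and matplotlib 3.10.9 made the tables and plots.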

Additional observations from a re-analysis of the deposited data

How the results depend on the processing

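No gene that rose or fell changed sign in any alternative, and 7 of the 20 calls held in every fit that left out 1 array (*ccna2*, *ccnb3*, *e2f3*, *plk1*, *incenp*, *cks1b* and *anapc13*). In those 6 fits 3 to 5 genes rose and 5 to 12 fell, lowest without WT replicate 1 (3 and 5), with fewer arrays and so less power. Without WT replicate 1, 8 of the 20 calls held, and 12 to 15 without any other array. With the methods' t-test after adjustment 3 rose and 6 fell, and 9 of the 20 calls held; *incenp* was lost too, with *anapc10*, *cdc20*, *cdkn3*, *e2f6*, *e2f7*, *nek7*, *nuf2*, *nusap1*, *smc1al* and *smc3* (adjusted p = 0.0502 to 0.119). Unadjusted, 12 rose and 24 fell. Without replicate 3 of both groups, 8 of the 20 held (adjusted p = 0.0533 to 0.182 for the 12 lost). Apart from these and the replicate block, settings of the fit or scaling lost at most 2 calls each, and the probe set of the largest spread lost *ccnb3* (adjusted p = 0.193). In these settings and with that probe set, 7 to 10 genes rose and 11 to 19 fell. The most did so with array weights, which kept all 20 calls. The median log2 fold change of the 79 genes was −0.095 to −0.15 in the 6 fits that left out 1 array. When the replicate number entered as a block, 10 rose and 18 fell, with 17 of the 20 calls held, 3 lost and 11 gained. Shares of all genes that rose or fell under these alternatives are not given. The counts therefore show only how the calls depend on the setting. Of the genes differentially expressed and higher, there were 0 with array weights and 0 without replicate 3 of both groups, since *anapc13* came just under 2-fold, and without replicate 3 of both groups 3 genes rose at any fold. With the probe set of the largest spread, 1 gene was lower at 2-fold, *ccnd1*. The sign of *ccne1* turned, at −0.073 with array weights, −0.083 without WT replicate 3, −0.028 without *fogsk8* replicate 3 (−0.083 to 0.074 over the 6 arrays left out) and −0.12 without replicate 3 of both groups. That of *cdc25b* turned too, at −0.047 with array weights, −0.34 for the mean of its probe sets, −0.55 for that with the largest spread, −0.0064 without WT replicate 2, −0.080 without WT replicate 3 (−0.080 to 0.13 over the 6), and −0.094 without replicate 3 of both groups. None of these values passed for *ccne1*, whose adjusted p was 0.313 to 0.864, whereas the mean and the largest spread passed for *cdc25b* (adjusted p = 0.0167 to 0.0225).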
